A study of Mus musculus with 5 samples.

Results

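PU.1 binding gained after PU.1 was restored was examined at 10 mouse genes of the NF-kB system, 5 that encode its transcription factors (Nfkb1, Nfkb2, Rel, Rela and Relb) and 5 that encode inhibitors of it (Nfkbia, Nfkbie, Nfkbiz, Tnfaip3 and Tnip1). The genes were taken by name from 21631 protein-coding genes (autosomes 1 to 19 and chromosome X). Every deposited peak summit that lay inside a gene or within 50 kb of either of its ends was counted, and those within 10 kb of an end were counted separately. Of the 11106 summits on these chromosomes, 28 lay at the 10 genes.

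NF-kB is a dimer of Rel-family proteins that waits in the cytoplasm, held there by IkB proteins. Signals from Toll-like, cytokine and TNF receptors lead to the breakdown of IkB, and the freed dimer enters the nucleus and switches on inflammatory genes. Among these are the genes of its own inhibitors, which end the response, and in macrophages PU.1 is known to open many of the enhancers that NF-kB then uses.

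The cells were AML-246, an acute myeloid leukaemia on the C57BL/6 background that is p53-/- and carries a GFP-linked hairpin RNA against PU.1 under the control of doxycycline (Dox). ChIP-seq with the PU.1 antibody T-21 was made from spleen cells of leukaemic recipients treated with Dox for 2 days, in which endogenous PU.1 returns (PU.1 high, 3 libraries), and of untreated leukaemic recipients (PU.1 low, 2 libraries). All 5 libraries share the loss of p53, the hairpin and the leukaemia, so the model is 1 leukaemia, and the labels call the libraries of a group technical replicates. The ages of the mice are not given in the labels.

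The deposited data are 1 list of summits whose name sets high against low and which is therefore read as binding gained with PU.1, with a score on a −log10 scale for each, given by the authors' peak caller. A summit is the base of highest signal in a peak. The list holds no value per library, so read depth and the spread between libraries are unknown, and no test of Dox-treated against untreated mice was possible. A score ranks how surely a site stands out and is not a fold change of binding, and binding is not a measure of expression. In bulk cells, binding in more of the cells and stronger binding per cell cannot be told apart. The cell type could not be checked against markers with these data.

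At least 1 summit lay inside or within 50 kb of 8 of the 10 genes, against 50.3% of all protein-coding genes. Within 10 kb of an end, 5 of the 10 genes had a summit, against 22.4% of all protein-coding genes. These 5 were Relb, Nfkbie, Nfkbiz, Tnfaip3 and Tnip1, which are 1 of 5 factor genes and 4 of 5 inhibitor genes. The sites at Nfkbie and Tnip1 were nearer to other genes. With each summit given to the nearest protein-coding gene end, 3 genes remained (Relb, Nfkbiz and Tnfaip3), against 16.5% of all protein-coding genes. Nfkb1, Nfkb2 and Rel had summits only farther away or deep inside the gene, and Rela and Nfkbia had 0 in the whole window. The genes were chosen with earlier results of these data known, so the counts are descriptions and were not tested.

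Where transcription starts were listed, no summit fell at the start of its own NF-kB gene. RefSeq promoter windows on GRCm38.p6, which run from 250 bases before to 50 bases after a start, were matched for 7 of the 10 genes, with 10 windows in all. Nfkb1, Relb and Nfkbiz had no entry. The summit of Relb, 0.645 kb from its upper end, was thus not set against a start and is not part of this count. Of the 16 summits at the matched genes, 0 lay within 1 kb of a listed start of the gene, 8 lay upstream and 8 downstream. The nearest stood 2.59 kb downstream of an internal start of Tnfaip3. The share of all genes with a summit within 1 kb of a listed start was not counted, so the 0 is not read as a trait of these genes. Within 1 kb of either gene end, 2 of the 10 genes had a summit (Relb and Nfkbie), against 6.41% of all protein-coding genes. The site at Nfkbie, 0.758 kb beyond its upper end, was nearer to Slc35b2.

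The letters of these promoters are shown because 3 of these genes have summits but none at the start, Nfkbia has none at all, and Rel holds the only long PU.1 motif of the matched genes. In capitals are matches to the NF-kB consensus, the 10-base pattern bound by NF-kB dimers, or to its short form GGANTTTCC, and in Rel also the PU.1 motif GAGGAAGT. Each is printed 5′ to 3′ on the strand of the gene, from RefSeq on GRCm38.p6. The window of Rel lies at chr11:23770920-23771219 (minus strand), that of the main start of Tnfaip3 at chr10:19015361-19015660 (minus strand), that of Nfkbia at chr12:55492598-55492897 (minus strand) and that of Tnip1 at chr11:54962891-54963190 (minus strand).
Rel: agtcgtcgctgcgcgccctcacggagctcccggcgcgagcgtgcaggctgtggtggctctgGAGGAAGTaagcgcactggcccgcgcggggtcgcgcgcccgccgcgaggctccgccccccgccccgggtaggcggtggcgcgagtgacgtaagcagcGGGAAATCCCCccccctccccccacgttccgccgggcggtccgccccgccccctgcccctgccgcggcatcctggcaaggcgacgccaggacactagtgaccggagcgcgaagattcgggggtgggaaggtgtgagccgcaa
Tnfaip3: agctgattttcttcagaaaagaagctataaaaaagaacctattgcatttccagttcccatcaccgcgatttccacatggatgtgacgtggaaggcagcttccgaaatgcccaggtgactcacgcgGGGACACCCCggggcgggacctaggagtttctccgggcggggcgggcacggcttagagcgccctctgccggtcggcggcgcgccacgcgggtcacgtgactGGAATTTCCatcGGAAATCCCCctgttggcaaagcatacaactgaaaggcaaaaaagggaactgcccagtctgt
Nfkbia: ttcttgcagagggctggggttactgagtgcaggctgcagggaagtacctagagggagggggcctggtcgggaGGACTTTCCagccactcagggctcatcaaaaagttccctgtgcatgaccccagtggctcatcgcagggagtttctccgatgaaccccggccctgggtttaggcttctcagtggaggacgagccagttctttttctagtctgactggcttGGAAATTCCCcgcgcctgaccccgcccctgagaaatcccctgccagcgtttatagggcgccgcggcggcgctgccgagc
Tnip1: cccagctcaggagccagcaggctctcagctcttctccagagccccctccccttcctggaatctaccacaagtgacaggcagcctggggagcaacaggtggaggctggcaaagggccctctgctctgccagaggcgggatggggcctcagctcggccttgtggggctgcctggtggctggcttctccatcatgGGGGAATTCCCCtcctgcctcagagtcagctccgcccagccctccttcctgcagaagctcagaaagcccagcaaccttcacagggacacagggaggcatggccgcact

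The NF-kB consensus was found on either strand in 8 of the 10 windows, which belong to 6 of the 7 matched genes (Nfkb2, Nfkbia, Nfkbie, Rel, Tnfaip3 and Tnip1), and Rela was the exception. Over all 32619 promoter windows of the same length, 8.51% held it. The windows of 1 gene can overlap, as 2 of those of Nfkb2 do. The short form GGANTTTCC, which can overlap the consensus, stood in 4 of the 10 windows (Nfkb2, Nfkbia and Tnfaip3), against 1.26% of all windows. In Tnfaip3 a match to the short form began 24 bases before the start, and in Nfkbia matches began 178 and 29 bases before it. The PU.1 core GAGGAA was found in 1 of the 10 windows, that of Rel, against 28.2% of all windows. There it was part of the longer GAGGAAGT, which began 189 bases before the start and is held by 3.22% of all windows. The AP-1 motif TGANTCA stood in 3 of the 10 windows (Nfkb2, Nfkbie and Tnfaip3), against 7.85%. A match describes the letters of a window and does not show that a factor binds there, and no summit of the list lay in any of the 10 windows.

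A single summit of the 28 fell in a listed promoter window, that of a neighbouring gene. Nfkb1, Relb and Nfkbiz have no listed window. The share of all summits in promoter windows was not counted. The site, at chromosome 17, position 45563927, with a score of 11.7, stood 0.758 kb beyond the upper end of Nfkbie, which is downstream of that gene, and 9 bases before the listed start of Slc35b2, which encodes a transporter of the sulphate donor PAPS into the Golgi. The window of Slc35b2 lies at chr17:45563686-45563985 (plus strand, RefSeq on GRCm38.p6), and capitals mark each GGAA, the core bound by ETS-family proteins such as PU.1, on either strand. This motif was chosen after the site was seen, and 96% of all windows hold it.
Slc35b2: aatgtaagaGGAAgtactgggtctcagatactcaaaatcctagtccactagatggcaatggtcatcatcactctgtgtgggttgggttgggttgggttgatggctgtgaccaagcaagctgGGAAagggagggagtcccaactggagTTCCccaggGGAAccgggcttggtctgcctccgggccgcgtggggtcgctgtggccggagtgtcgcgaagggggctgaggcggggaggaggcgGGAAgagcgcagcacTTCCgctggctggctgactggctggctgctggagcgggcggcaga
The summit base lay inside the GGAA that begins 10 bases before the start, and another core, on the other strand, lay 14 bases from the summit. The longer GAGGAAGT of this window began 243 bases before the start.

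The scores of the 28 summits spanned 2.06 to 19.4, with a median of 8.29 (95% binomial interval 6.58 to 11.8). The median of all 11106 summits was 8.56, with quartiles of 5.78 and 11.9, so the median at the NF-kB genes lay near that of the whole list. Of the 28, 11 scored at least 10 (39.3%), against 37.4% of all summits.

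**Figure D1:**
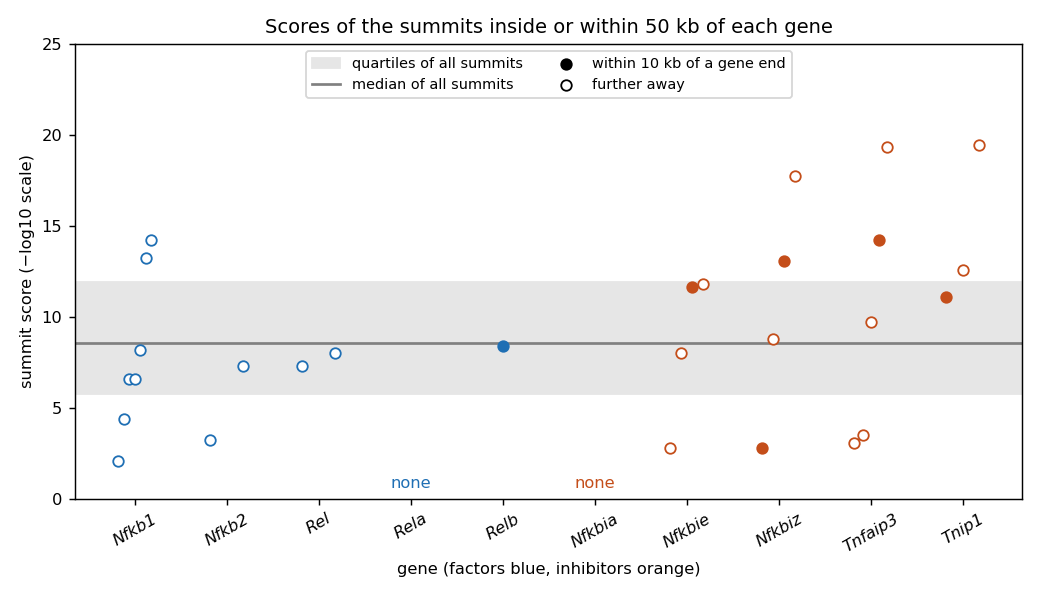
Score of each PU.1 summit (−log10 scale, vertical axis) inside or within 50 kb of each NF-kB gene (horizontal axis). Filled points lie within 10 kb of a gene end and open points farther away, the grey band spans the quartiles of all summits (5.78 to 11.9) and the line is their median of 8.56. The highest points are at Tnip1 (19.4), Tnfaip3 (19.4) and Nfkbiz (17.7), and Rela and Nfkbia have none.

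Counted over length, the merged windows of the 10 genes held 28 summits in 1.29 Mb, or 21.7 per Mb (95% exact Poisson interval 14.4 to 31.3, counting error only). The merged windows of all protein-coding genes held 5.80 per Mb, where stretches shared by neighbouring genes count once. Per gene, without such merging, the mean was 2.8 summits at the 10 genes and 1.05 over all protein-coding genes. Without Nfkb1, the gene with the most summits, the windows of the other NF-kB genes held 19.4 per Mb. The gene spans alone held 7 summits, or 23.996 per Mb (interval 9.65 to 49.4), against 5.61 per Mb for the spans of all protein-coding genes. Of these 7, 5 were inside Nfkb1, and the span value without that gene was not computed. The factor genes had 12 summits (17.5 per Mb, interval 9.03 to 30.5) and the inhibitor genes 16 (26.4 per Mb, interval 15.1 to 42.9), and these intervals overlap. The median score was 7.29 over the 12 summits of factor genes and 11.4 over the 16 of inhibitor genes. Their 95% binomial intervals, 4.39 to 8.40 and 3.48 to 14.2, overlap. Of these summits, 2 and 9 scored at least 10, and 4 and 7 were nearer to another gene. Nfkb1 alone held 7 of the 12 factor summits, with the 2 that scored at least 10. The factor values without that gene were not computed. The intervals treat each summit as independent, which sites of 1 locus need not be. The difference between factor and inhibitor genes was not tested.

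**Figure D2:**
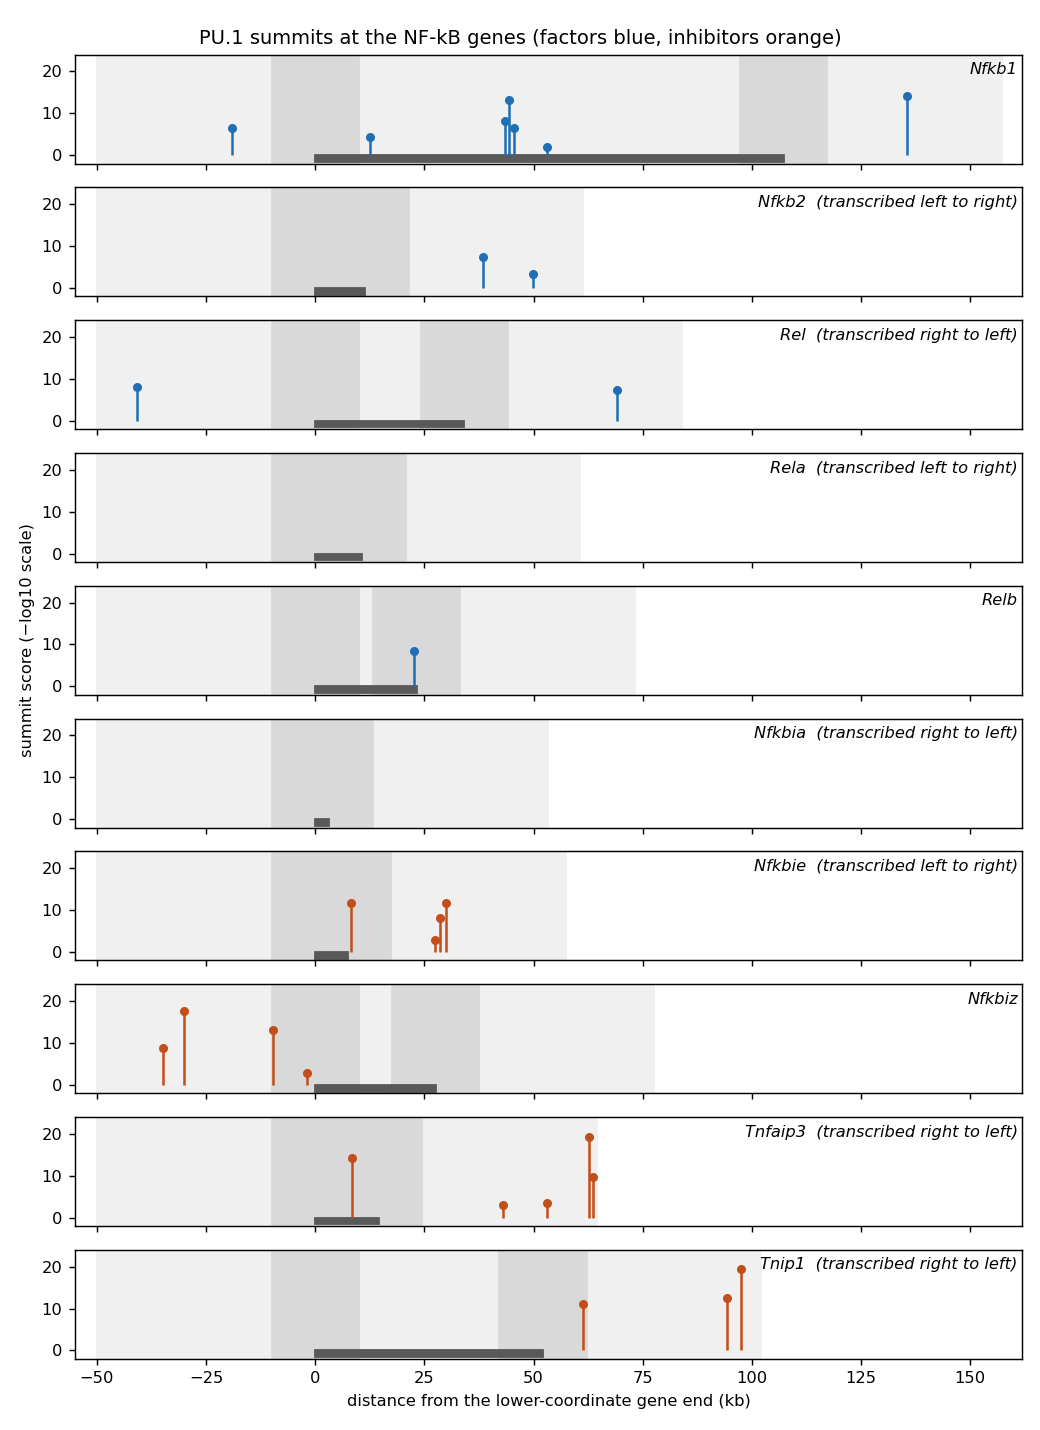
Position of each PU.1 summit along the 10 NF-kB genes, as distance from the lower-coordinate end of the gene (kb, horizontal axis), with its score as height (−log10 scale). The dark bar is the gene, darker grey marks 10 kb around its ends and light grey the 50 kb window. Summits at Nfkb1 lie mainly inside the gene, and those of Tnfaip3 and Tnip1 mostly upstream. Of the 28, 22 lie more than 10 kb from an end, a share not counted over all summits.

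Nfkb1 (chromosome 3, 135584655 to 135691969) encodes p105, which is processed to the p50 subunit of NF-kB. With 7 summits it had the most of the 10 genes, and 0.869% of all protein-coding genes had at least as many. Its span of 107 kb is also the longest of the 10. Inside the gene lay 5 summits, and none of the 7 was within 10 kb of an end. Of these 5, 3 stood within 2 kb of each other, at 135628171 (score 8.18), 135628999 (13.2) and 135630137 (6.58), between 43.5 and 45.5 kb from the lower end. The other summits inside the gene, at 135597179 and 135637789, scored 4.39 and 2.06. The highest score of the locus, 14.2, belonged to a site outside protein-coding genes at 135720140, 28.2 kb beyond the upper end. The remaining site, of score 6.57, lay 19.1 kb beyond the lower end and inside Manba, the gene of the lysosomal enzyme beta-mannosidase.

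Nfkb2 (chromosome 19, 46300994 to 46312400) encodes p100, the precursor of the p52 subunit of the non-canonical pathway. It had 2 summits, of scores 7.29 and 3.24, at 46339378 and 46350803, 27.0 and 38.4 kb beyond the upper end and downstream of the gene. Both were nearer to other genes, the first lying 0.706 kb from an end of Cuedc2 and the second 6.07 kb from Mfsd13a. Between them lies Mir146b (46342762 to 46342870), 3.38 kb from the first summit and 7.93 kb from the second. Its family member miR-146a is induced by NF-kB. As known from human monocytic cells, miR-146a targets the mRNAs of the adaptor kinase IRAK1 and of TRAF6, which makes it a further feedback inhibitor. Whether NF-kB induces miR-146b was not examined here. The mature form of miR-146b, from RefSeq on GRCm38.p6, is shown with the seed (bases 2 to 8) in capitals because the seed sets its targets.
mmu-miR-146b-5p: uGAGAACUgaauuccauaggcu
With sites on either side that are nearer to other genes, distance does not tell which gene of this interval, if any, they serve.

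Rel (chromosome 11, 23736847 to 23770969) encodes c-Rel, a factor found mainly in lymphoid and myeloid cells. It had 2 summits. The one at 23805921 (score 7.29) stood 35.0 kb upstream of its start and 0.484 kb from an end of the non-coding gene Gm39612. The other, at 23696059 (score 7.999), lay 40.8 kb beyond the lower end, inside Pus10, a pseudouridine synthase gene. Just outside the 50 kb window stood a further site of score 14.8, 50.2 kb beyond the upper end, and another of score 11.8, 53.96 kb beyond the lower end, so the count for Rel depends on where the window ends.

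Relb (chromosome 7, 19606217 to 19629438) encodes the partner of p52. It had 1 summit, at 19628793, within the gene body at 0.645 kb from the upper end, with a score of 8.40. This was the only factor gene with a summit within 10 kb of an end. Its next sites lay 88.6 kb beyond the lower end (score 4.35) and 70.3 kb beyond the upper end (16.3).

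Rela (chromosome 19, 5637442 to 5648134), the gene of p65, the main activating subunit of canonical NF-kB, had 0 summits in its window. Its closest site stood 57.0 kb past the upper end and scored 12.5. A gene without a summit in this window is common, since 49.7% of protein-coding genes had 0. As the list is read as gained binding, a site bound alike with PU.1 high and low need not be in it.

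Nfkbia (chromosome 12, 55489409 to 55492647) encodes IkB-alpha, the inhibitor that NF-kB induces most quickly. It had 0 summits in its window, although its promoter holds the NF-kB matches printed above. Its nearest sites lay 332 kb beyond the upper end (score 5.92) and 439 kb beyond the lower end (score 8.64). Of the 10 genes it was thus the one farthest from any listed site.

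Nfkbie (chromosome 17, 45555700 to 45563169) encodes IkB-epsilon. It had 4 summits, all downstream of the gene and all nearer to another gene. The first is the site at the start of Slc35b2 described above. The other 3, at 45583173, 45584268 and 45585614, scored 2.76, 7.9997 and 11.8 and lay 20.004 to 22.4 kb beyond the upper end, within 2.03 kb of an end of Slc29a1, the gene of a nucleoside transporter. A site of score 25.6, higher than any of the 28, stood just outside the window, 50.03 kb beyond the upper end.

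Nfkbiz (chromosome 16, 55811375 to 55838954) encodes IkB-zeta, a nuclear IkB protein that is needed for part of the NF-kB response, such as the induction of Il6, and so is not an inhibitor alone. It had 4 summits, all beyond its lower end and outside protein-coding genes. For all 4, Nfkbiz was the protein-coding gene with the nearest end. At 55809603, 1.77 kb from the gene, the score was 2.76, and at 55801783, 9.59 kb away, it was 13.1. Farther out, the sites at 55781384 and 55776535, 29.99 and 34.8 kb away, scored 17.7 and 8.78. The score thus did not increase towards the gene. Outside the window, the next site beyond the lower end was 61.2 kb away (score 10.1), and the next beyond the upper end 1137 kb away (score 6.98).

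Tnfaip3 (chromosome 10, 19000910 to 19015410) encodes A20, a ubiquitin-editing enzyme that shuts off signalling to the IkB kinase. It had 5 summits, and 3.61% of all protein-coding genes had at least as many. The site inside the gene, at 19009370, scored 14.2 and lay 2.59 kb downstream of an internal start and 6.04 kb from the upper end, which is the main start. The other 4 were upstream and outside protein-coding genes, with scores of 3.03 at 28.6 kb, 3.48 at 38.5 kb, 19.4 at 48.1 kb and 9.71 at 49.03 kb. Only 4.33% of all summits scored as high as the site at 48.1 kb, which lay 0.778 kb from an end of the non-coding gene Gm51814. Tnfaip3 was the protein-coding gene nearest to all 5. A further site of score 5.02 stood 53.1 kb beyond the upper end, just outside the window.

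Tnip1 (chromosome 11, 54910787 to 54962956) encodes ABIN1, a protein that binds A20 and ubiquitin chains and assists it. It had 3 summits, all upstream of its start. Their scores were 11.1 at 9.22 kb, 12.5 at 42.2 kb and 19.4 at 45.5 kb beyond the upper end, so that all 3 were above the median of the list. All 3 were nearer to an end of Anxa6, an annexin gene, and the 2 farther ones lay inside it. The highest, at 55008425, had the highest score of the 28, and 4.23% of all summits reached it.

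**Figure D3:**
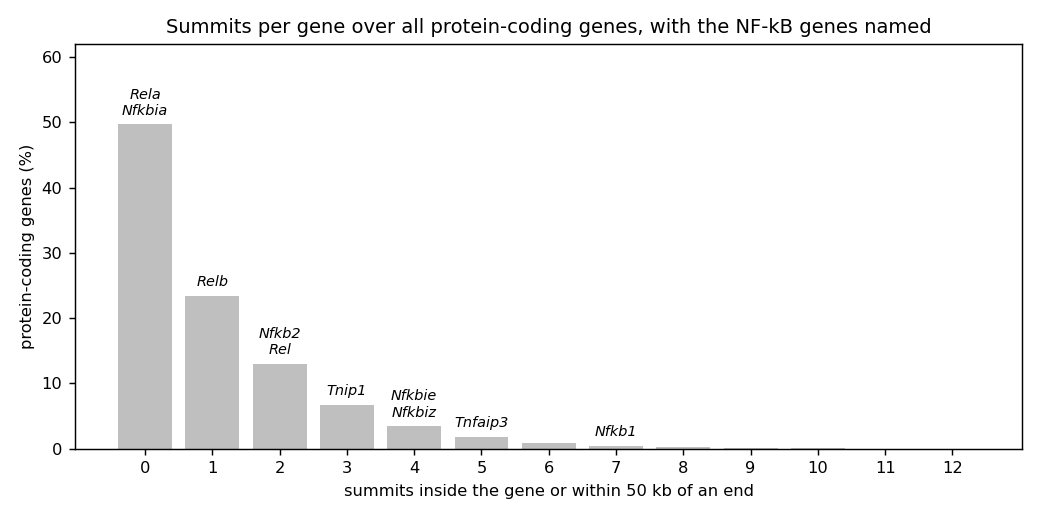
Share of all 21631 protein-coding genes (%, vertical axis) by the number of PU.1 summits inside the gene or within 50 kb of an end (horizontal axis), with the NF-kB genes named above the bar of their count. Nfkb1 with 7, Tnfaip3 with 5, and Nfkbie and Nfkbiz with 4 stand in the thin right part, where 7.1% of genes have 4 or more, and Rela and Nfkbia stand at 0.

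Most of the sites were distal and many lay beside other genes. The windows reach 50 kb past each end, so much of their length is itself far from the gene. The shares below were not counted over all summits, so they are not read as a trait of these genes. Of the 28 summits, 7 were inside the NF-kB gene itself, 6 inside another protein-coding gene and 15 outside protein-coding genes, and 20 lay more than 20 kb from the nearer end of the NF-kB gene. The NF-kB gene had the nearest protein-coding gene end for 17 of the 28, shared among 5 of the 10 genes (Nfkb1 with 6, Tnfaip3 with 5, Nfkbiz with 4, and Rel and Relb with 1 each). For the other 11, which include all sites at Nfkb2, Nfkbie and Tnip1, another gene was nearer. The median score was 8.40 for the 17 and 7.9997 for the 11. A summit with a score of at least 10 was present at Nfkb1, Nfkbie, Nfkbiz, Tnfaip3 and Tnip1, or 5 of the 10 genes, against 26.9% of all protein-coding genes. Within 10 kb of an end this held for 4 of the 10, all inhibitor genes, against 9.08%. At Nfkbie and Tnip1 that site was nearer to Slc35b2 and to Anxa6.

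Other genes of the pathway were counted in the same way, in 5 lists that hold 73 different genes. Of these, 40 (54.8%) had a summit within 10 kb of an end, against 22.4% of all protein-coding genes. Inside or within 50 kb, 58 (79.5%) had one, against 50.3%, with a median of 2 summits per gene. The 10 NF-kB genes had a median of 2.5 and all protein-coding genes a median of 1. These counts were not tested, and the share within 10 kb at the 10 genes, 50%, was close to that of the rest of the pathway.

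All 3 other IkB family genes had a summit within 10 kb, with highest scores of 10.3 at Nfkbid, 3.48 at Bcl3, which encodes a nuclear co-activator of p50 and p52, and 2.76 at Nfkbib, which encodes IkB-beta. The site at Nfkbid was nearer to Tyrobp. Of the 11 kinase genes 7 had one within 10 kb, where the share of all protein-coding genes was 22.4%. The highest score was at Ikbkb, the gene of the catalytic IkB kinase beta, with 4 summits within 10 kb and a highest score of 25.2 at 1.48 kb outside the gene. Map3k14, the kinase NIK of the non-canonical pathway, followed with 3 summits and 15.9, and Chuk, which encodes IkB kinase alpha, with 2 and 14.3, where the top sites were nearer to Spata32 and Erlin1.

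Of the 15 adaptor and signalosome genes, 9 had a summit within 10 kb, led by Card10 (17.9), Traf3 (17.02), whose protein holds NIK low, and Birc2 (11.2), a ubiquitin ligase gene. Of the 20 genes of ubiquitin editors and other negative regulators, 9 had one, led by Itch (13.9), a ligase that works with A20, Tnip3 (13.2), a relative of Tnip1, and Optn (11.2), where the site was nearer to Mcm10. Of the 24 textbook target genes of NF-kB, 12 had a summit within 10 kb and 21 within 50 kb. The shares of all protein-coding genes were 22.4% and 50.3%. The highest scores of the target genes within 10 kb were at Il12b (17.9), Cd80 (13.2) and Tnf (12.7).

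**Figure D4:**
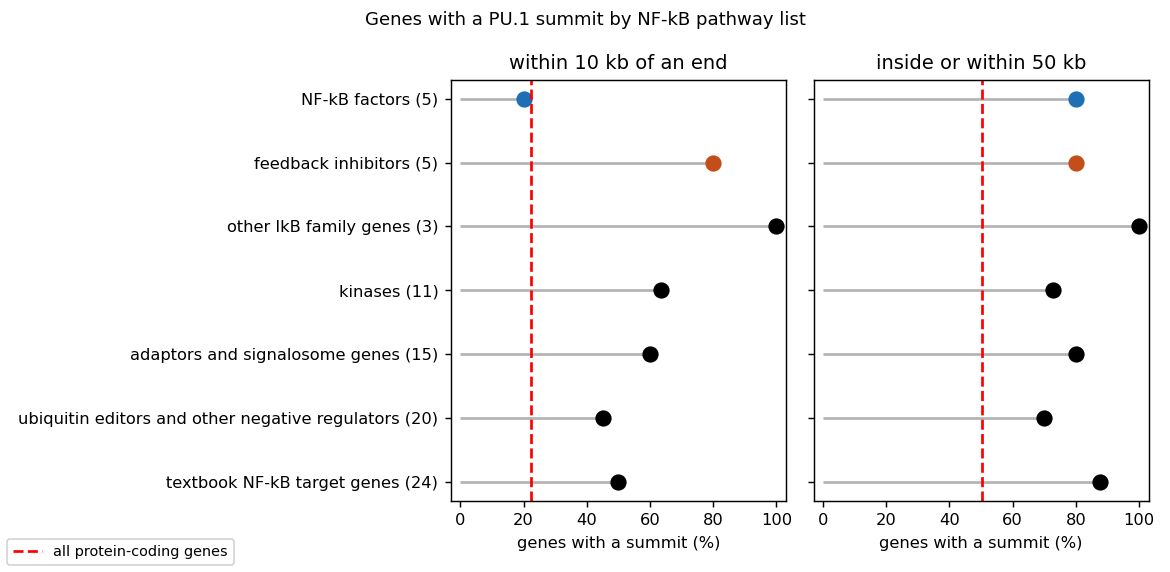
Share of genes with a PU.1 summit (%, horizontal axes) in the NF-kB factors, the feedback inhibitors and 5 lists of other pathway genes, within 10 kb of a gene end (left) and inside or within 50 kb (right), with the number of genes in brackets. The dashed lines are the shares of all protein-coding genes, 22.4% and 50.3%. Within 10 kb the factor genes, at 20%, lie near the line and the inhibitor genes at 80%, each from 5 genes only. The sites within 10 kb of Nfkbie and Tnip1 are nearer to other genes.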

How the data were processed

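PU.1 ChIP-seq of AML-246 cells was deposited as 1 summit list for 5 libraries (3 PU.1 high, 2 PU.1 low). The submitters' processing notes name CASAVA 1.8.2, MACS2 and the build mm10. For the aligner, the filters, the MACS2 version and settings and the pooling of libraries, nothing is stated in the labels or the file. The deposited score of each summit is on a −log10 scale, given by the authors' peak caller. The file does not say whether it derives from p-values or q-values. Depth is unknown.

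Of the 11111 summits, the 11106 on chromosomes 1 to 19 and X were set against RefSeq genes of GRCm38.p6, which shares its chromosome coordinates with mm10. Positions are 1-based. The gene table has no strand or exons, so distances are to the nearer gene end, and starts and strands came from the promoter table. Whether a site inside a gene is exonic or intronic was not analysed here. Windows of 10 and 50 kb were counted with Python 3.11.15, pandas 2.3.3, NumPy 2.4.6 and SciPy 1.17.1, and the counting was tested on simulated data. The members and lists were chosen with earlier results of these data known. All 10 members are named, with the 3 genes of highest score within 10 kb in each pathway list. A planned pathway list is not reported here. No test was run. Other windows, minimum scores, nearest-gene assignment, listed starts, merged summits and gene biotypes were tried as alternatives.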

Additional observations from a re-analysis of the deposited data

How the results depend on the processing

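Of 26 alternative values, 16 stayed within 1.5 times a reported count or inside the 95% interval of another reported value. These include 6 genes with a 20 kb window for either count, 21 summits at a score of at least 5, and a median score of 11.4 within 10 kb of an end. Part of this tally was fixed in advance. Merging summits under 500 bases apart could not change the counts at these genes, where the closest summits stood 0.828 kb apart. With only 10 genes, a rise of the count of 8 could not leave the tolerance. The count of 5 genes with a summit within 10 kb of an end was 2 with a 1 kb window (background 6.41%), 3 with 5 kb (15.1%), 3 with each summit given to the nearest protein-coding gene end (16.5%) and 3 with listed starts only, which cover 7 of the genes (17.6%). The count of 8 genes within 50 kb was 5 at a score of at least 10 (26.9%) and 5 by nearest end (25.6%), and the 28 summits were 11 and 17 under these settings. With genes of all biotypes, the background shares were 16.6% and 40.4%. These drops follow from narrower windows, stricter assignment, fewer sites, fewer matched genes or added genes. The value per Mb without Nfkb1 was chosen after the data were seen. No paired analysis was possible because the list holds no values per library, and for the same reason no library was left out. No depth was known, so a gene without a summit may hold sites below the caller's threshold.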
